A study of Mus musculus with 4 samples.

Results

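The TNF receptor superfamily loci of T cells described here are 8 receptor genes, Tnfrsf1b, Tnfrsf8, Tnfrsf9, Tnfrsf25, Tnfrsf14, Tnfrsf4, Tnfrsf18 and Cd27, and 1 ligand gene, Tnfsf8. Their regions were chosen from the deposited ATAC-seq region list by position: a region was taken when it overlapped the gene, or the 20 kb on either side, by at least 1 bp. This gave 67 distinct regions of the 64525 in the list. ATAC-seq marks open chromatin by cutting it with a transposase. It was applied to naive CD4+ T cells, purified from spleen and the tissue abbreviated pLN, of mice labelled DDX55 KO (2 libraries) and of WT mice (2 libraries); the labels give no strain, age, knockout allele or number of animals. The list is on mouse build mm10, gives only positions, in 3 columns, and joins all 4 libraries, so every value below describes both genotypes together, no SD between libraries can be given, and KO was not compared with WT here. The genes were chosen by results of this same region list, so all counts are descriptions, with no test. Read depth is unknown. For the cell label, 5 T cell markers were listed: Cd3e, Cd4, Lck, Tcf7 and Ccr7. All 5 had a region within 1 kb of a gene end, against 52.6% of all protein-coding genes. None of the 3 B cell markers (Cd79a, Ms4a1 and Pax5) or the 2 myeloid markers (Adgre1 and Cd68) did. The markers were listed with earlier results of these data known, so they are no independent check. The contrast between the markers holds for gene ends alone. Counted over the gene and 20 kb on either side, Cd79a had 5 regions, Pax5 had 6, Ms4a1 had 1, Cd68 had 4 and Adgre1 had 3. The median over all protein-coding genes was 3.

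Receptors of this family are membrane proteins that bind trimeric ligands and recruit TRAF adaptors, or death-domain adaptors in a few cases, to switch on NF-kB and kinase signalling. On T cells they act as costimulatory receptors: some, such as CD27 and HVEM, are carried by resting cells, and others, such as OX40, 4-1BB and CD30, appear after antigen contact. CD30 and its ligand, encoded by Tnfrsf8 and Tnfsf8, form a receptor and ligand pair. Gene limits and promoters below come from RefSeq tables of GRCm38.p6, the same assembly as mm10. The tables give gene limits and start sites but no exons, so regions inside a gene are not split into exonic and intronic ones.

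All 9 genes had an accessible region at a promoter. A promoter is here the 250 bases before and the 50 bases after a start site listed by RefSeq. The 9 genes have 11 listed starts, 2 each at Tnfrsf9 and Tnfrsf25 and 1 at each of the others, and a region overlapped the promoter of 9 of the 11. Over all protein-coding genes with a listed start, 49.2% of 17492 had a region at a promoter, and over their promoters 46.8% of 21263 had one. The start site itself lay inside a region at 6 of the 11 starts, namely those of Tnfrsf1b, Tnfrsf14, Cd27 and Tnfsf8, the second start of Tnfrsf9 and the second start of Tnfrsf25. Over all listed starts of protein-coding genes, 43.1% of 21263 lay inside a region.

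The promoter sequences that show how the regions are placed at the start sites are printed 5′ to 3′ on the strand of the gene, in lower case, with the bases inside an accessible region in capitals (RefSeq, GRCm38.p6). The Tnfrsf9 pair shows a gene whose first start lay outside any region and whose second start lay inside one. Tnfrsf8 and Tnfrsf18 show regions that stopped just before the start, Tnfrsf4 a region that began just after it, Tnfrsf14 the promoter with the fewest CpG dinucleotides, and Tnfsf8, the ligand gene, a region that covered the start but not the far upstream bases.
Tnfrsf9 first start, chr4:150919905-150920204, plus strand: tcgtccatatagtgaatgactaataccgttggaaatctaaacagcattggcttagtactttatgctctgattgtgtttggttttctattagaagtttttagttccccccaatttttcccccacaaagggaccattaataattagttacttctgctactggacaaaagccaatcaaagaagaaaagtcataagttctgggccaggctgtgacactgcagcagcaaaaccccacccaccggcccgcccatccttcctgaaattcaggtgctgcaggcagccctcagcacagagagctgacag
Tnfrsf9 second start, chr4:150927749-150928048, plus strand: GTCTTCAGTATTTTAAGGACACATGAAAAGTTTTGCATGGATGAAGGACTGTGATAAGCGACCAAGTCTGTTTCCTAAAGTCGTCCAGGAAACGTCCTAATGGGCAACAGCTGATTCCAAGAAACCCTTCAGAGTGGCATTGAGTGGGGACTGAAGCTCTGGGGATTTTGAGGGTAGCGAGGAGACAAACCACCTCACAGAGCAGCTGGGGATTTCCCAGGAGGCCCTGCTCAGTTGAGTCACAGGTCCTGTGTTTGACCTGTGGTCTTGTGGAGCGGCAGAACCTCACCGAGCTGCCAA
Tnfrsf8, chr4:145315115-145315414, minus strand: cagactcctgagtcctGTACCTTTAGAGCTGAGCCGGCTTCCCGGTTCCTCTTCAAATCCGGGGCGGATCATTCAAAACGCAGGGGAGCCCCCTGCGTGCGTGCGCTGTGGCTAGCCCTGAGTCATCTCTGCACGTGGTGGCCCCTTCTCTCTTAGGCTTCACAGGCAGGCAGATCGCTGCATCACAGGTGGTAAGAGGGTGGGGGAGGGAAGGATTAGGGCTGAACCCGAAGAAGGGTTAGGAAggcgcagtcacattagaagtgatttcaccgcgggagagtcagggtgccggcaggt
Tnfrsf18, chr4:156026072-156026371, plus strand: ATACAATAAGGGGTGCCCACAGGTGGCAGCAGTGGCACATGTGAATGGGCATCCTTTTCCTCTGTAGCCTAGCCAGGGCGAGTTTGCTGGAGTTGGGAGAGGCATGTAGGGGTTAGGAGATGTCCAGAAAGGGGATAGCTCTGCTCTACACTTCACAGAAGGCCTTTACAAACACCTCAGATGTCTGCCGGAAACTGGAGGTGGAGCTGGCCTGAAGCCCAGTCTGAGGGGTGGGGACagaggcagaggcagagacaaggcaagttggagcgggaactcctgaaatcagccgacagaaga
Tnfrsf4, chr4:156013445-156013744, plus strand: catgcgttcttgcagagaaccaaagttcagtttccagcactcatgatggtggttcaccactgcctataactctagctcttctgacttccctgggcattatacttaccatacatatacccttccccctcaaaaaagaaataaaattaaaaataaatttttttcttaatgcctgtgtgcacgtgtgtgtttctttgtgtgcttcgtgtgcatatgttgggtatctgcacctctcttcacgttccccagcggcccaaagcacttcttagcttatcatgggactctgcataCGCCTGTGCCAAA
Tnfrsf14, chr4:154928028-154928327, minus strand: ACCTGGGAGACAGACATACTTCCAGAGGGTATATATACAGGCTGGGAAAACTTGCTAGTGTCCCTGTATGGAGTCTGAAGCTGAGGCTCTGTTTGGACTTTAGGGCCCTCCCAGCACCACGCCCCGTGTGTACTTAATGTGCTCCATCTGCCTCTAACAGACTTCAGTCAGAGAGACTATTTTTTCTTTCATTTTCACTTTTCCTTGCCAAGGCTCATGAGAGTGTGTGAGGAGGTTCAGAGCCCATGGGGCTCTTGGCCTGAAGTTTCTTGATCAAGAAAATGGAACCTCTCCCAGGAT
Tnfsf8, chr4:63861235-63861534, minus strand: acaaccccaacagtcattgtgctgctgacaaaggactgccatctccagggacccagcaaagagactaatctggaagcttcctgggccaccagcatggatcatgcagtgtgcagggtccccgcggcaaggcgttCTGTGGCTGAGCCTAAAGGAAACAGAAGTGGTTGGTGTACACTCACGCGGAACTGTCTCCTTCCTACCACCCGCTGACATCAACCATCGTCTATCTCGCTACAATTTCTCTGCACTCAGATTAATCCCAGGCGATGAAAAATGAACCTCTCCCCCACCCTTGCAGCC

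At Tnfrsf9, which encodes the costimulatory receptor 4-1BB, the first listed start had no region within 1 kb. The region nearest to it, 251 bp wide, began 1177 bp downstream. The second start, inside the gene, lay in a region of 723 bp that covered all 300 bases of its promoter. Among all protein-coding genes with 2 listed starts, 25.0% of 2074 had a region at 1 of their promoters alone. Of these 519 genes, 168 (32.4%) had it at the downstream start, as Tnfrsf9 did. Tnfrsf25 also had its region at the downstream start alone, but its 2 starts lie close together and the region, 609 bp wide, began 51 bp after the first of them. For Tnfrsf25 the assignment to 1 start therefore rests on the exact edge of a region.

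The promoter regions of Tnfrsf8, Tnfrsf18 and Tnfrsf4 did not cover the start site. The capitals in the sequences mark the same region edges. As at Tnfrsf25, these placements rest on the exact edge of a region, and the settings that drew the edges are unknown. At Tnfrsf8, encoding CD30, the region of 229 bp ended 6 bp before the start and covered 229 of the 300 promoter bases. At Tnfrsf18, encoding the receptor GITR, the region of 278 bp ended 13 bp before the start and covered 238 bases. At Tnfrsf4, encoding the receptor OX40, the region of 286 bp began 37 bp after the start and covered only the last 13 bases of the promoter. These 3 regions were also the narrowest of the 9 promoter regions, which reached 891 bp at Tnfrsf1b, 894 bp at Cd27 and 1007 bp at Tnfrsf14.

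Of the 11 promoters of the 9 genes, 7 held fewer than 10 CpG dinucleotides, and those of Tnfrsf1b, Tnfrsf8 and Tnfrsf25 held more. The choice of regions by position did not use CpG, but the genes were chosen with their regions known. Promoters rich in CpG are typical of genes used in many cell types. The count was 2 at Tnfrsf14, 4 at Tnfrsf18, 6 at Tnfrsf4 and at the second start of Tnfrsf9, 7 at Cd27, 9 at Tnfsf8, 13 at Tnfrsf1b, and 15 at Tnfrsf8 and at the second start of Tnfrsf25. The starts without a region held 4 at Tnfrsf9 and 12 at Tnfrsf25. The median over the 11 promoters was 7, against 22 over all promoters with a region, 4 over all promoters without one, and 13 over all promoters.

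Across the list, the share of promoters with a region was higher at higher CpG counts. A region was present at 5.75% of the 6035 promoters with 0 to 4 CpG, at 23.4% of the 3161 with 5 to 9, at 57.1% of the 2110 with 10 to 14, at 73.1% of the 2316 with 15 to 19 and at 78.1% of the 7641 with 20 or more. The other 4 promoters of these genes, at Tnfrsf1b, Tnfrsf8 and both starts of Tnfrsf25, fell in the classes from 10 to 19 CpG, and 3 of them had a region. Of the 7 promoters of these 9 genes with fewer than 10 CpG, 6 had a region, against 11.8% of the 9196 such promoters overall. The 9 genes were chosen with their regions known, so this contrast describes the choice as well as the promoters. GC content ranged from 43.7% at Tnfrsf4 to 67.0% at the second start of Tnfrsf25, around a median of 55.3% against 56.3% over all promoters.

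**Figure D1:**
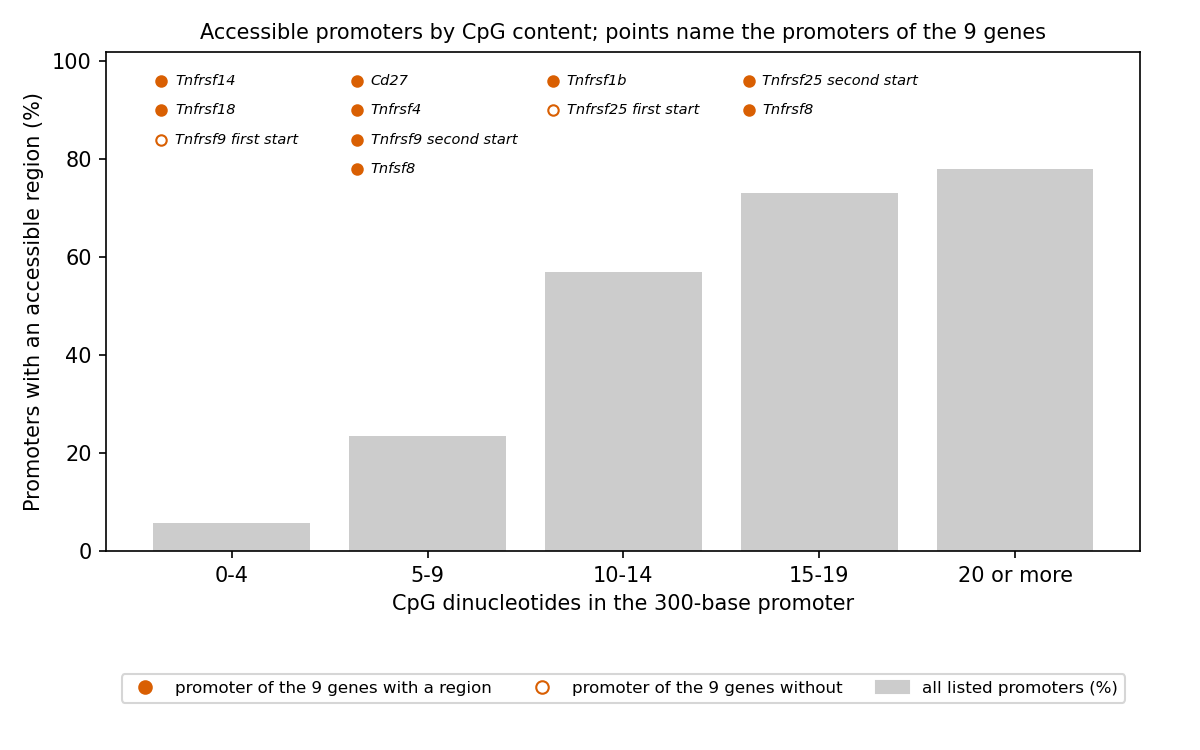
Grey bars give the percentage of all listed promoters of protein-coding genes that overlap an accessible region (y axis), by the number of CpG dinucleotides in the 300-base promoter (x axis). The named points only assign the 11 promoters of the 9 genes to a CpG class and have no height of their own; filled points have a region and open points have none, and 6 of the 7 points under 10 CpG are filled.

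Short motifs of T cell transcription factors were searched on both strands of the 11 promoters and of all 21263 promoters. The letters were TGANTCA for AP-1, TGTGGT for RUNX, CCGGAA for ETS, CTTTGA for TCF, GGAAAA for NFAT, GGGCGG for the GC box and TATAAA for the TATA box, with the NF-kB motif searched by its usual consensus. In the 11 promoters, no pair of matches of different motifs shared a base. Positions are those of the first base of the match, counted from the start site as 0.

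NF-kB matches stood in 3 of the 11 promoters, against 9.25% of all promoters and 10.5% of those with a region. AP-1 matches stood in 2, against 6.99% of all promoters and 4.20% of those with a region. Tnfrsf8 held an NF-kB match 168 bases and an AP-1 match 132 bases before its start, both within its region. The second start of Tnfrsf9 held an NF-kB match 43 bases and an AP-1 match 15 bases before it, and a RUNX match 10 bases after it, all within its region. Several NF-kB matches at these promoters overlap one another, on both strands or shifted by 1 base. The second start of Tnfrsf25 held NF-kB matches 28 bases before and 36 bases after it.

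ETS matches stood in 2 promoters, 178 bases before the start of Tnfrsf1b and 63 bases before that of Tnfrsf18, against 18.7% of all promoters and 32.4% of those with a region. GC boxes stood in 4 of the 11, against 46.2% of all promoters and 68.5% of those with a region. NFAT letters stood in 5, against 22.3% of all promoters and 19.8% of those with a region. TCF letters stood in 3, against 14.4% and 11.1%, and RUNX letters in 2, against 3183 of the 21263 and 11.9%. The TATA box letters stood in 0 of the 11, against 12.6% of all promoters and 5.83% of those with a region. The counts out of 11 include the first starts of Tnfrsf9 and Tnfrsf25, whose promoters had no region. Both held GC box, NFAT and TCF letters, and that of Tnfrsf25 also held RUNX letters. For these motifs the counts are therefore not those of promoters with a region. With so few promoters these counts are a description, and a match is not a measured binding site.

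Each of the 9 loci had at least 6 regions in the gene and the 20 kb on either side, a count that 16.3% of the 21887 protein-coding genes reached. The cut of 6 is the lowest count among the 9 loci themselves, so all 9 reach it by construction. The median was 8 regions per locus, against 3 over all protein-coding genes, and 152 other protein-coding genes between Tnfrsf1b and Tnfrsf18 on chromosome 4 had a median of 4. Tnfrsf1b had the most with 14, followed by Tnfsf8 with 11 and Tnfrsf9 with 10. Tnfrsf8 and Tnfrsf4 had 8 each, Tnfrsf14 and Tnfrsf18 had 7 each, and Tnfrsf25 and Cd27 had 6 each. Some regions count more than once: 7 lay in the windows of both Tnfrsf4 and Tnfrsf18, and 3 in those of both Tnfrsf1b and Tnfrsf8. Of the 67 regions, 10 lay within 1 kb of an end of a protein-coding gene outside the 9. No share over all regions of the list is given beside this count, so it is not read as high or low.

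**Figure D2:**
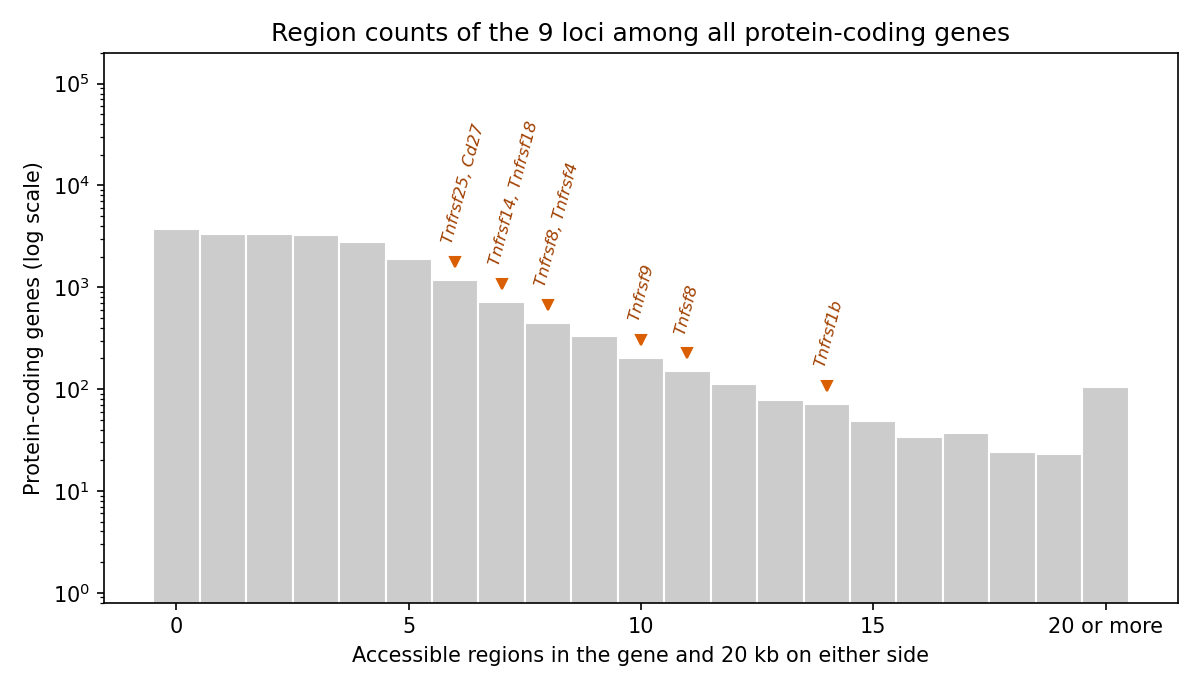
Bars give the number of protein-coding genes (y axis, log scale) by the number of accessible regions in the gene and 20 kb on either side (x axis, with 20 or more joined). Triangles mark the 9 genes above the bar of their own count, from 6 at Tnfrsf25 and Cd27 to 14 at Tnfrsf1b.

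Long genes have longer windows, so density was also compared. Tnfrsf1b had 18.8 regions per 100 kb of window and Tnfrsf4 had 18.6, and 0.402% and 0.425% of protein-coding genes were at least as dense. Tnfrsf8, the longest gene of the 9 at 48.0 kb, had the lowest density, 9.09 per 100 kb, which 11.1% of genes reached. The other 6 lay between 13.5 and 16.4, and the median of the 9 was 15.2, against 3.69 over all protein-coding genes. Accessible regions covered 10.7% of the window of Tnfrsf1b, 9.77% of that of Cd27 and 4.07% of that of Tnfrsf8; the median was 8.32%, against 1.81% over all genes.

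The regions were wider than usual in the list, but they were not compared with other regions near genes alone. Median width was 520 bp over the 67 regions and 294 bp over all 64525 regions. Of the 67, 32 (47.8%) were at least 536 bp wide, the upper quartile of the list, which 25.0% of all regions reached. The 9 promoter regions had a median of 609 bp, the 19 regions inside the genes away from promoters 388 bp, and the 39 remaining regions in the flanks 542 bp. The 10 regions at an end of a protein-coding gene outside the 9, also counted in these classes, had a median of 697.5 bp. Of these 10, 70.0% were at least 536 bp wide. The narrowest, 107 bp, lay inside Tnfrsf9, and the widest, 1364 bp, lay beside the 3′ end of Cd27.

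**Figure D3:**
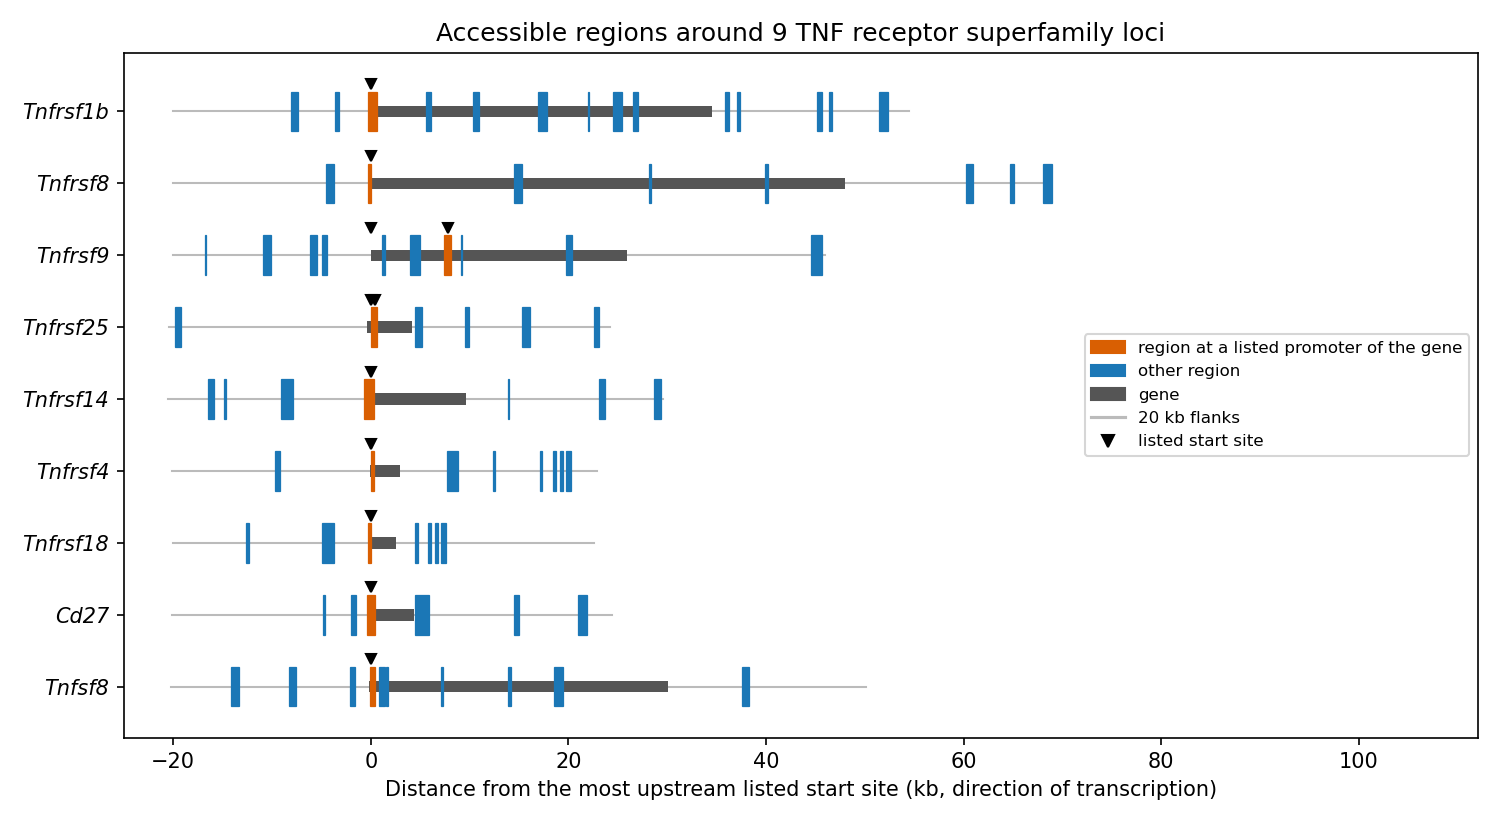
Each row is 1 locus, drawn to scale in kb from the most upstream listed start site in the direction of transcription (x axis); boxes are accessible regions, outlined so that narrow ones can be seen, grey bars are genes and thin lines the 20 kb flanks. Orange boxes overlap a listed promoter of the gene and black triangles mark listed starts; at Tnfrsf9 the orange box sits at the second start, 7.84 kb into the gene.

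Tnfrsf1b encodes TNFR2, a receptor for TNF that lacks a death domain and is abundant on regulatory T cells. The gene (chromosome 4, 145212368 to 145246870, gene ID 21938, minus strand) held 7 regions, a number that few protein-coding genes reached (4.8%). The promoter region spanned 145246242 to 145247132. The 6 others inside the gene lay 5.63, 10.3, 16.9, 22.0, 24.5 and 26.5 kb after the start, and those at 16.9 and 24.5 kb were 920 and 912 bp wide, slightly wider than the promoter region at 891 bp. Beyond the 3′ end 5 regions followed, of which the farthest, 956 bp wide, lay at an end of Vps13d.

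Tnfrsf8 is the neighbour of Tnfrsf1b (145267132 to 145315164, gene ID 21941, minus strand) and held fewer regions inside than Tnfrsf1b. A count of 3 or more inside was reached by 18.9% of protein-coding genes. The 3 regions inside Tnfrsf8 lay 14.5, 28.1 and 39.9 kb after the start. The first of these, 803 bp wide, was wider than the promoter region of 229 bp. A further region of 861 bp lay 3.68 kb upstream of the start. The promoter region of Tnfrsf1b lay exactly at the 20 kb limit from Tnfrsf8 and was the farthest region still counted for any of the 9 genes, while a region 20.03 kb from Tnfrsf4 was the nearest left out.

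Tnfrsf9 (150920155 to 150946104, gene ID 21942, plus strand) had 5 regions inside the gene and 4 upstream. Inside the gene, between the starts, a region of 1027 bp spanned 150924116 to 150925142, ending 2.86 kb before the second start. Outside genes, regions of 542 and 755 bp lay 4.40 and 5.42 kb upstream of the first start. The other upstream regions lay within or at an end of Park7, the gene of a redox-sensitive protein. Only 1 region lay downstream, 18.6 kb beyond the gene and 1087 bp wide.

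Tnfrsf4 (156013595 to 156016613, gene ID 22163) and Tnfrsf18 (156026322 to 156028894, gene ID 21936), both on the plus strand of chromosome 4, are neighbouring short genes. Their bodies held little: 1 region in Tnfrsf4, the one just after its start, and 0 in Tnfrsf18. The region in Tnfrsf4 also lay within 1 kb of an end of Sdf4. Between the genes lay a region of 1131 bp (156021427 to 156022557), 4.81 kb beyond Tnfrsf4 and 3.77 kb before the start of Tnfrsf18. The promoter regions on its 2 sides were 286 bp wide at Tnfrsf4 and 278 bp wide at Tnfrsf18. Downstream of Tnfrsf18, 4 regions of 287, 300, 301 and 474 bp followed each other 1.89, 3.21, 3.96 and 4.55 kb after the gene, the last within 1 kb of an end of Ttll10.

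Tnfrsf14 encodes HVEM, which binds the ligand LIGHT and the inhibitory receptor BTLA. The gene (154918487 to 154928620, gene ID 230979, minus strand) held only its promoter region of 1007 bp, although that was the widest promoter region of the 9 genes. Upstream, a region of 1172 bp (154935943 to 154937114) lay 7.87 kb before the start and overlapped no annotated gene. It was followed by regions of 273 and 630 bp at 14.6 and 15.9 kb. Downstream lay regions of 122, 602 and 689 bp, the last at an end of Prxl2b.

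Tnfrsf25 encodes DR3, a receptor with a death domain that binds the ligand encoded by Tnfsf15. The gene (152115528 to 152120119, gene ID 85030, plus strand) lies between Plekhg5 and Espn, and its promoter region, 152115985 to 152116593, also lay within 1 kb of an end of Plekhg5. A region of 706 bp began 250 bp beyond the 3′ end of Tnfrsf25 and lay at an end of Espn. The 3 remaining downstream regions all lay inside Espn, which encodes an actin-bundling protein.

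Cd27 encodes the receptor of CD70 and is a marker of naive and memory T cells. The gene (chromosome 6, 125232620 to 125237136, gene ID 21940, minus strand) had its promoter region of 894 bp at 125236547 to 125237440. The widest region of the set, 1364 bp at 125231164 to 125232527, lay 93 bp beyond its 3′ end and also overlapped Tapbpl and an end of the long noncoding RNA gene E130112N10Rik. Upstream regions of 506 and 209 bp lay 1.48 and 4.58 kb before the start. Of its 6 regions, 3 lay at an end of another protein-coding gene, Tapbpl once and Vamp1 the other times.

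Tnfsf8, the ligand gene (63831202 to 63861508, gene ID 21949, minus strand), stood apart on chromosome 4 from the 7 receptor genes that lie within 10.8 Mb of each other, and no other gene was annotated in its window. It held 7 regions, as many as Tnfrsf1b, but grouped at the start. The promoter region of 516 bp was followed by regions of 388, 145 and 146 bp at 0.82, 1.25 and 1.58 kb after the start. Farther inside, regions lay at 7.07, 13.9 and 18.6 kb, the last 901 bp wide and the widest of the locus. Upstream, regions of 507, 664 and 745 bp lay 1.56, 7.60 and 13.4 kb before the start.

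The genes differed in where their regions lay. A region overlapped 8 of the 9 genes, against 65.5% of all protein-coding genes, and Tnfrsf18 was the exception. Away from 1 kb of the gene ends, 4 genes held regions: Tnfrsf1b, Tnfrsf8, Tnfrsf9 and Tnfsf8, which are also the 4 longest. A region lay within 1 kb of either gene end at 8 of the 9 genes, against 52.6% of all protein-coding genes; the exception was Tnfrsf9, whose accessible start is internal. Per locus the mean was 2.33 regions upstream, 2.89 inside and 3.33 downstream, against 0.716, 1.68 and 0.860 over the protein-coding genes with a listed start. The medians were 2 upstream, 1 inside and 3 downstream, against 0, 1 and 1, so the median count inside the gene was the same as over all genes.

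**Figure D4:**
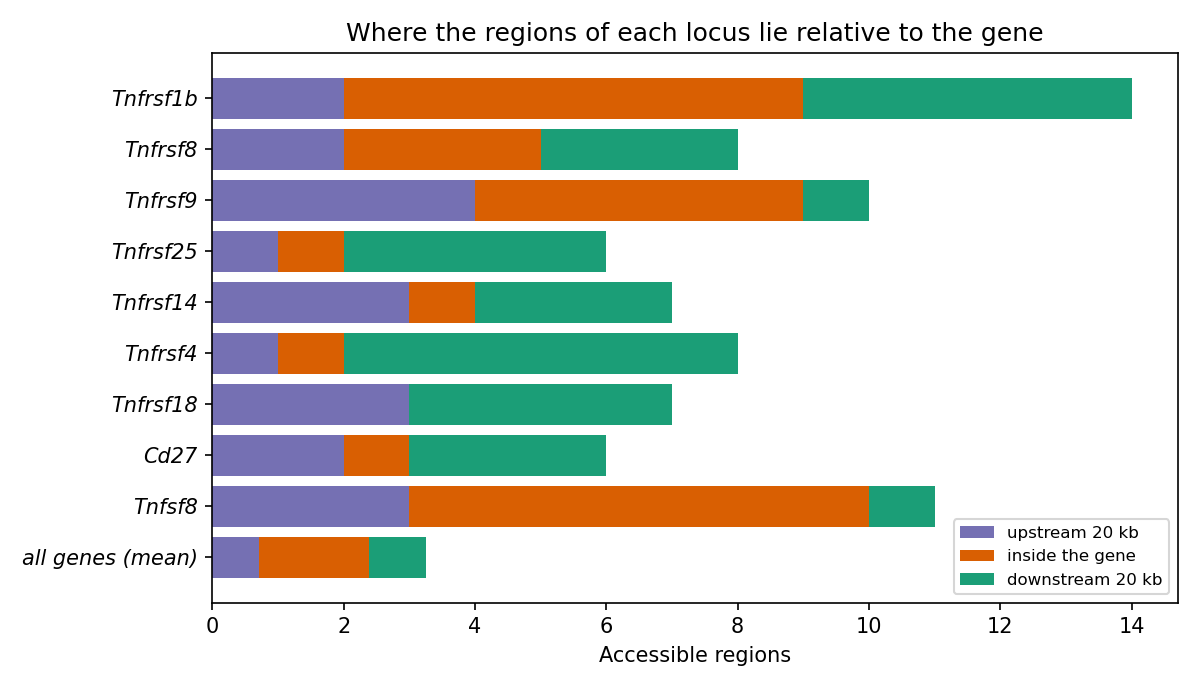
Stacked bars give the number of accessible regions (x axis) in the 20 kb upstream of each gene, inside it and in the 20 kb downstream; the bottom bar is the mean over all protein-coding genes with a listed start. Tnfrsf1b and Tnfsf8 have 7 regions inside the gene, whereas the bars of Tnfrsf4 and Tnfrsf18 are mostly flank.

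Other genes of the pathway were read from lists of 16 ligands, 20 other receptors and 15 adaptors and regulators. Regions per window had a median of 8 at the 9 loci, 4.5 at the ligands, 3 at the other receptors and 5 at the adaptors. The 5 T cell markers named at the outset had a median of 9, from 6 to 11, which lies within the range of the 9 loci. Their median density was 14.2 regions per 100 kb, against 15.2 at the 9 loci. Counts ran from 6 to 14 at the 9 loci, from 0 to 9 at the ligands, from 0 to 8 at the other receptors and from 1 to 8 at the adaptors. A region within 1 kb of a gene end was present at 9 of 16 ligands (56.25%), 14 of 20 other receptors (70.0%) and 15 of 15 adaptors and regulators. The share was 52.6% over all protein-coding genes, close to that of the ligands. It was 67.8% over the 152 other genes between Tnfrsf1b and Tnfrsf18, close to that of the other receptors.

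Among the ligands, Tnf, Lta and Ltb had 9 regions each, but they are neighbours on chromosome 17 and share regions. The 7 ligands without a region at an end were Tnf, Cd40lg, Cd70, Tnfsf12, Tnfsf13b, Tnfsf15 and Tnfsf18. Of the partners of the receptors above, Tnfsf8 (for CD30, itself among the 9 loci) had 11 regions and Tnf (for TNFR2) had 9. Tnfsf4 (for OX40) and Tnfsf9 (for 4-1BB) had 5 each, and Tnfsf15 (for DR3) and Tnfsf14 (for HVEM) had 2 each. Tnfsf18 (for GITR) had 1, and Cd70 (for CD27) had 0.

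Among the other receptors, Tnfrsf1a, the death-domain receptor for TNF, had the most at 8, against 14 at Tnfrsf1b, and Tnfrsf22 followed with 5. The third rank was shared, at 4 regions, by Cd40, Tnfrsf10b, Tnfrsf13c, Tnfrsf19 and Tnfrsf26. The 6 without a region at an end were Ltbr, Tnfrsf13b, Tnfrsf17, Ngfr, Edar and Eda2r. Tnfrsf13b and Tnfrsf17 are receptors of B lineage cells, but so are Tnfrsf13c and Cd40, which had 2 regions and 1 region at an end. Ngfr is known from nerve cells and Edar from skin appendages. Where the listed receptors act was not compared with their regions, and Tnfrsf11a, Tnfrsf11b, Tnfrsf19 and Tnfrsf21 had 1 region each at an end. Of the adaptors, the TRAF genes Traf1, Traf3 and Traf5, Birc3, which encodes a ubiquitin ligase recruited by TRAF proteins, and Tank shared the highest count of 8.

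**Figure D5:**
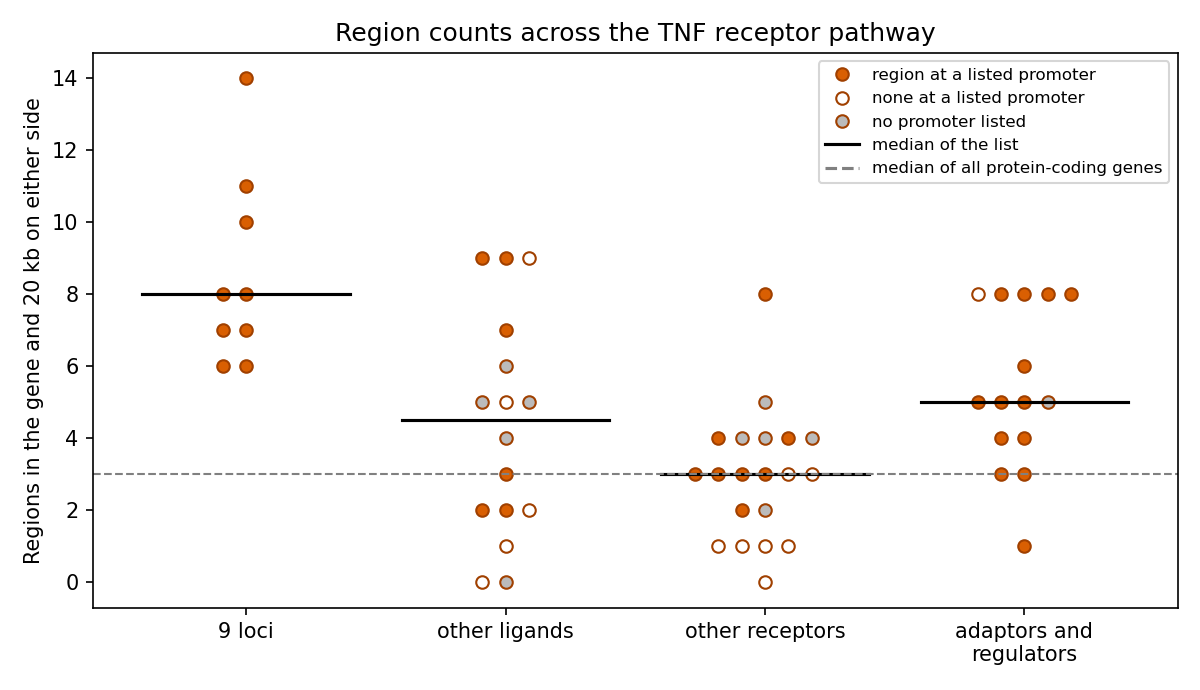
Each point is a gene, placed by its number of accessible regions in the gene and 20 kb on either side (y axis); columns are the 9 loci and the lists of other ligands, other receptors, and adaptors and regulators. Filled points have a region at a listed promoter, open points have none and grey points have no listed promoter; black lines are list medians (8, 4.5, 3 and 5) and the dashed line is the median of all protein-coding genes (3).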

How the data were processed

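ATAC-seq was run on 2 DDX55 KO and 2 WT libraries. The authors deposited 1 BED list of regions for all libraries; per the submitters' processing notes, fastp 0.12.4, Bowtie2 2.5.08, SAMtools 1.15.1, MACS3 3.0.0b1 and build mm10 were used. For their settings, the handling of duplicates and of the transposase offset, and the joining of libraries, nothing is stated in the sources used here. A region that one library alone produced cannot be told from one shared by all.

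Starts were converted to 1-based positions. Genes were the 21887 protein-coding ones on the assembled chromosomes in the RefSeq table of GRCm38.p6, and 17492 of them had a promoter listed. All 9 genes, and all other genes in the lists, matched by symbol. The planned genotype comparison needs values per library and was not made. Windows, ends and motifs were counted in Python 3.11.15 with pandas 2.3.3, and the counting was tested on simulated data. The genes, lists and motifs were chosen with earlier results of these data known. All 9 genes were named, and from each list those without a region at an end and the 3 with the most regions, ties included; the receptors' ligands were named in addition.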

Additional observations from a re-analysis of the deposited data

How the results depend on the processing

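No paired analysis was possible because the deposited list carries no value per library; for the same reason no library could be left out. The size of the flank moved the counts most. The 67 distinct regions became 26 in the gene bodies alone and 44 with flanks of 5 kb, and the median of 8 regions per gene became 1 in the bodies, 5 with flanks of 5 kb and 5 with 10 kb. Genes with a region inside them numbered 4 rather than 8 when regions within 1 kb of an end were left out. The other alternatives for these counts stayed within 1.5 times: flanks of 50 kb, the middle of a region in place of any overlap, regions of at least 200 bp, merging of regions under 500 bp apart, leaving out regions at ends of other protein-coding genes, other end windows, and the listed start alone. For single genes 22 of 72 alternative counts moved by more than 1.5 times. Depth is unknown, so a missing region does not show closed chromatin.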

Other observations

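Several regions of these loci lay at noncoding genes. The share over all regions of the list was not counted, so the counts here are not read as high or low. Gm16008, a long noncoding RNA gene of 11.2 kb that spans Tnfrsf18, overlapped 3 regions: the one of 1131 bp between the 2 receptor genes, the promoter region of Tnfrsf18 and the first region downstream of Tnfrsf18. Gm36233, a long noncoding RNA gene of 16.2 kb between Tnfrsf1b and Tnfrsf8, overlapped 2 regions and had 0 within 1 kb of its ends. E130112N10Rik, of 8.67 kb, spans all of Cd27 and overlapped 3 of its 6 regions, the promoter region of Cd27 among them. The region of 1087 bp downstream of Tnfrsf9 overlapped an end of the long noncoding RNA gene Gm30120 and the small nuclear RNA gene Gm23405. The microRNA gene Mir8113, inside Cd27, overlapped 0 regions.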
